A study of Mus musculus with 2 samples.

Results

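Cytosolic ribosomal proteins are the protein subunits of the ribosomes that translate nuclear mRNAs. They were taken here as the probe sets whose only annotated gene symbol begins with Rpl or Rps followed by a digit, or is Rplp0, Rplp1, Rplp2 or Rpsa, without Rps6k kinases and pseudogenes. The rule found 106 probe sets of 50 genes among 45101 probe sets on the array. Of these genes, 22 encode canonical proteins of the large subunit and 21 canonical proteins of the small subunit. Another 5 encode paralogues (Rpl22l1, Rpl39l, Rpl3l, Rps27l and Rps4l), which are variant copies of a canonical protein. The remaining 2 match the rule by name and are not ribosomal subunits: Rpl7l1 takes part in ribosome assembly, and Rps19bp1 encodes a protein that binds the Rps19 protein. They were kept apart from the counts of subunits. Rplp1 had no probe set annotated to it alone.

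Pancreatic RNA came from male offspring of the inbred strain C57BL/6J at 10 weeks of age. Their mothers had eaten either a control diet or a methionine-deficient diet while pregnant, and offspring of both groups ate control diet from weaning at 3 weeks. RNA of each group was pooled and hybridised to 1 array, so n = 1 pool per group, 2 arrays in all. The design has no replicate, so variation among mice and among arrays is unknown, no p-value was possible, and the number of arrays limits the precision.

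Ribosomal proteins are made in step with ribosomal RNA and joined to it in the nucleolus, where the small and the large subunit are put together separately. Their mRNAs begin with a run of pyrimidines, the TOP (terminal oligopyrimidine) motif, through which the growth kinase mTOR and the RNA-binding protein Larp1 control their translation when nutrients change. Acinar cells, the main cells of the pancreas, secrete large amounts of digestive enzymes and have a dense ribosome-studded endoplasmic reticulum. Arrays of total RNA do not read translation, so they do not read TOP control at that step.

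Values are linear intensities per probe set, given with control RNA first where 2 are named, and differences are methionine-deficient minus control on the log2(intensity + 1) scale. A gene was represented by its brightest probe set, and was kept if the mean of its log2 values on both arrays reached that of an intensity of 150.3, the median of that mean over the probe sets once array controls were set aside. Of the 43 canonical genes 42 passed. Rps16, the one left out, had 5.02 in control RNA and 6.13 in methionine-deficient RNA. The error given with a difference is a robust SD between probe sets of 1 gene at a like level, which covers probe noise within these arrays only. It was 0.089 at intensities of 10000 or more and between 0.18 and 0.77 in 5 level bins. The 0.18 is that of the top bin, from 1477 up. That bin also holds pairs at 10000 or more, so 0.18 may be too small for genes below 10000.

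Ribosomal protein transcripts had close intensities in both pools. The median log2 difference over the 42 canonical genes was 0.020. In methionine-deficient RNA 23 were higher and 19 lower, and 32 of them (76.2%) differed by less than 0.1. Across all 11848 genes past the filter, the median was -7.7e-06, 50.0% were higher and 23.0% differed by less than 0.1. At least 1.5-fold apart were 2 of the 42, both lower, against 9.00% of all genes lower, 10.4% higher and 19.4% either way by that much. By 2-fold or more 1 was lower, Rps25, against 2.80% of all genes lower and 3.87% higher. Without probe sets that can bind several transcripts, 17 canonical genes were left and their median was -0.048. This also put dim probe sets in place of bright ones, as for Rps18, read at 244 and 172 in place of 62573 and 66493. The part of level and of probe-set type in that median was not tested. With quantile scaling the median of the 42 was -0.0017, beside -0.0034 for all genes. Centring each array on its median moved all genes alike, to a median of -0.052, and that of the 42 to -0.032. The 2 genes at least 1.5-fold apart were Rps25 and Rpl14, each read by a single probe set with intensities of 1049 or less.

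At intensities of 10000 or more, 35 canonical genes had a median of 0.029 with 21 higher and 14 lower, and none was 1.5-fold apart. All 339 genes in that range had a median of -0.020, 41.6% were higher and 58.4% lower, and 1 of them was at least 1.5-fold apart (0.295%). The 302 genes in that range that are not members had a median of -0.031, and 59.9% differed by less than 0.1, as did 29 of the 35 ribosomal protein genes (82.9%). Differences can be compressed near the top of an array's range. In a tissue, fewer cells of a type and less RNA per cell cannot be told apart.

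**Figure D1:**
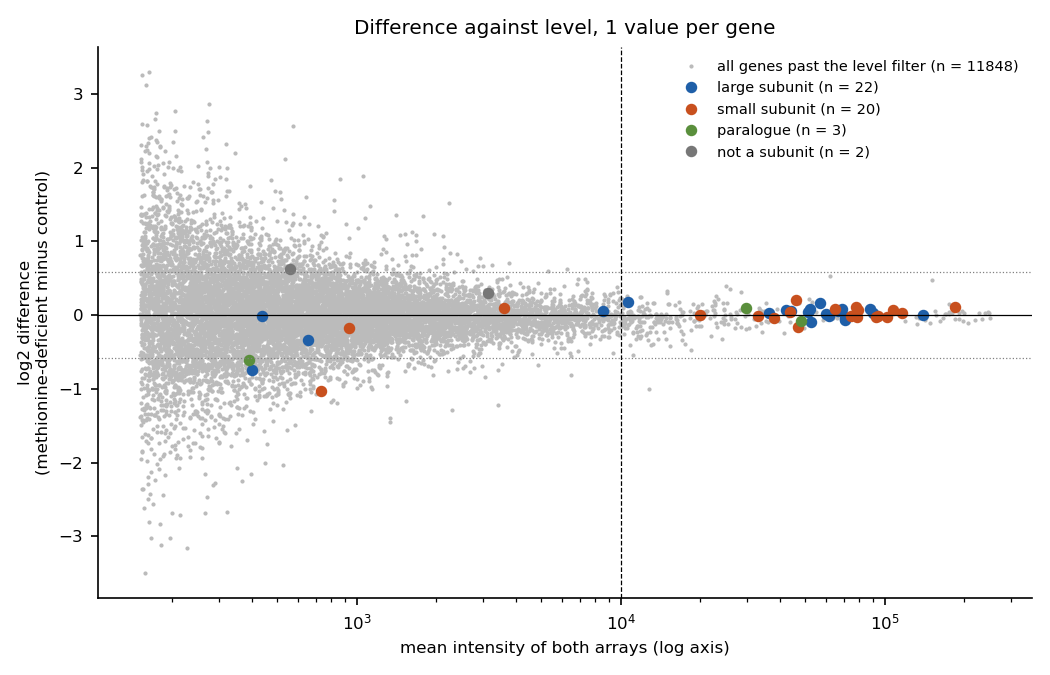
Log2 difference (methionine-deficient minus control) against the mean intensity of both arrays on a log axis, 1 point per gene, with the members coloured by class. The dashed line marks an intensity of 10000 and the dotted lines a 1.5-fold difference; the 35 canonical genes right of the dashed line lie between -0.16 and 0.20, and both canonical genes past a dotted line lie left of it.

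The start of a few members is shown because the TOP tract is the sequence feature that ribosomal protein mRNAs are known for. Promoter sequences of RefSeq on GRCm38.p6 were matched for 38 of the 43 canonical genes. The letters CTTTCC, as found in many such tracts, stood on the sense strand between 15 bases before and 15 bases after the annotated start in 5 of the 38 genes (13.2%) and in 1.67% of the 27025 genes searched. These genes and their bases, with CTTTCC in capitals, were
Rpl13a (chr7:45128731-45128760, minus strand): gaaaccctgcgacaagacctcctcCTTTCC
Rpl35 (chr2:39005117-39005146, minus strand): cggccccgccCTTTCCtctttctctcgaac
Rpl38 (chr11:114668565-114668594, plus strand): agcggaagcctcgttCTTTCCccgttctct
Rps10 (chr17:27635230-27635259, minus strand): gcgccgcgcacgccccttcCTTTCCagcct
Rps27 (chr3:90213634-90213663, minus strand): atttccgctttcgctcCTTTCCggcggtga
The same stretch of the 2 canonical genes at least 1.5-fold lower does not hold these letters, which says nothing about a tract in other letters. They are shown for comparison, chosen after their values were seen.
Rpl14 (chr9:120571502-120571531, plus strand): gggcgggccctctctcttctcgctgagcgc
Rps25 (chr9:44407699-44407728, plus strand): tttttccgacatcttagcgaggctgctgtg
In the 5 genes with the letters, log2 differences were 0.086 for Rpl13a, 0.014 for Rpl35, 0.029 for Rpl38, -0.030 for Rps10 and -0.17 for Rps27.

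Other letters were searched on both strands over 300 bases from 250 before the annotated start, and none of the strings contains another. All genes are here the 27025 searched, whether or not the array read them, and the share among genes of like level was not computed. A gene with several annotated starts counted if any of them matched. CCGGAAG, the core that ETS factors such as GABP bind, was in 19 of 38 members (50.0%) and in 9.93% of all genes. By subunit it was in 10 of 20 large and 9 of 18 small subunit genes. GGGCGG, the SP1 box, was in 22 members (57.9%) and in 38.2% of all genes. AAGATGG, the core that YY1 binds, was in 7 members (18.4%) and in 7.28% of all genes, and CTTTCC anywhere in the 300 bases in 19 members (50.0%) and in 29.3%. A match is a description of letters and not of a bound site.

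In the large subunit, 14 of 22 genes were higher and 8 lower, with a median log2 difference of 0.030. The small subunit had 9 of 20 higher and 11 lower, with a median of -0.0044. The medians were 0.035 apart. Over every probe set at 10000 or more the order was the other way, at 0.030 for 30 large subunit probe sets and 0.042 for 34 small subunit probe sets. It also turned with quantile scaling of the arrays, to -0.0086 for large minus small.

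**Figure D2:**
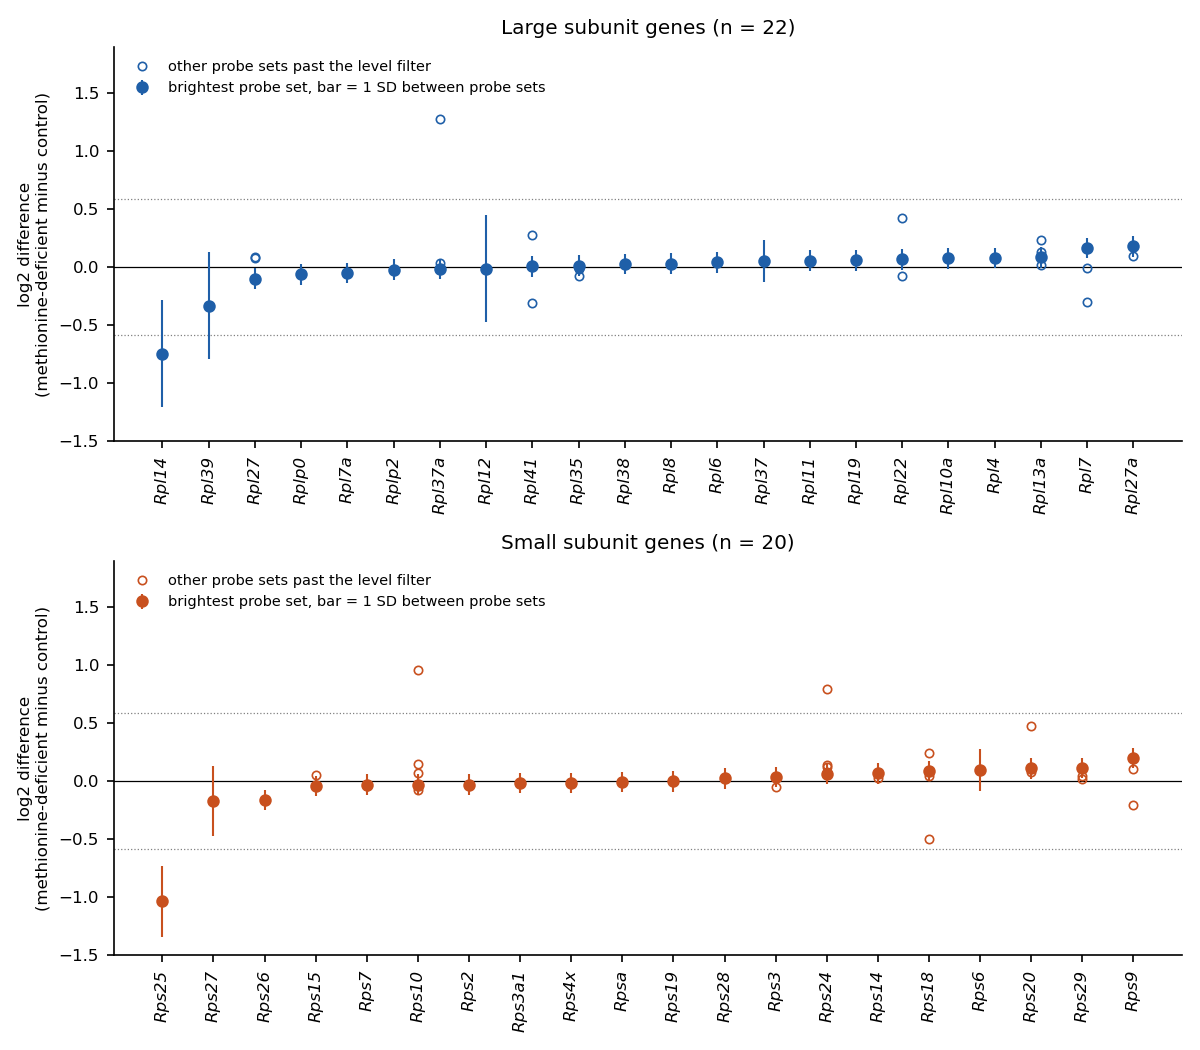
Log2 difference (methionine-deficient minus control) of each canonical gene past the level filter, large subunit above and small subunit below, ordered by value. Filled points are the brightest probe set with a bar of 1 robust SD between probe sets. Open points are the gene's other probe sets past the level filter. Dotted lines mark a 1.5-fold difference, and Rpl14 and Rps25 are the 2 filled points beyond them.

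Of the stalk of the large subunit, which recruits elongation factors, Rplp0 had an intensity of 72202 in control RNA and 69227 in methionine-deficient RNA (log2 difference -0.061, probe-set spread 0.089). Rplp2, which pairs with Rplp1 on the stalk, had 71206 and 70150 (-0.022). A probe set that lists Rplp1 beside a predicted gene had 121359 and 118070 (-0.040). The stalk genes were thus within the probe-set spread of 0.

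Rpl11, which joins the 5S ribosomal RNA and can bind the p53 regulator Mdm2 when assembly fails, had 65311 and 67918 (0.056). Its partner Rpl5 was read only by probe sets that also list a pseudogene, of which the brightest had 118741 and 118693 (-0.00059). Around the exit tunnel for the new protein, Rpl4 had 85762 and 90634 (0.080) and Rpl35 had 59753 and 60333 (0.014). Each of these 4 values was smaller than the probe-set spread.

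The canonical large subunit genes with the largest higher values were Rpl27a, at 10001 and 11323 (0.18), and Rpl7, at 53801 and 60381 (0.17). The spread was 0.089 at their level and 0.18 in the bin that holds values just below 10000, next to which Rpl27a lies. A shared probe set of Rpl27a had 64809 and 66695 (0.041). For Rpl7 the other 2 probe sets gave -0.0050 and -0.30. Rpl13a, known also for a role in silencing inflammatory mRNAs, had 67006 and 71143 (0.086), and its 4 probe sets were all higher, from 0.018 to 0.23. Rpl10a had 50872 and 53688 (0.078).

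Lower values in the large subunit were led by Rpl14, at 519 in control RNA and 310 in methionine-deficient RNA, 1.68-fold lower (log2 difference -0.74, probe-set spread 0.46). Rpl39, a small protein at the exit tunnel, had 732 and 582 (-0.33, spread 0.46). Rpl27 had 54604 and 50958 (-0.10, spread 0.089), while its other 2 probe sets gave 0.082 and 0.093. Rpl7a had 71627 and 69237 (-0.049). Of the lower genes named here, those with the largest sizes were thus dim ones with a wide spread.

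In the small subunit, Rps6, whose protein is phosphorylated by S6 kinase downstream of mTOR, had 3505 and 3748 (0.096, probe-set spread 0.18). Of the probe sets that list Rps6 beside another symbol, the brightest had 134735 and 137052 (0.025), and the next gave 0.23. Rpsa, also known as a laminin receptor, had 33285 and 33117 (-0.0073). Rps19, the gene most often mutated in Diamond-Blackfan anaemia, had 20016 and 19995 (-0.0016). In their own probe sets all 3 genes lay within the spread of their level.

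Higher values in the small subunit were led by Rps9, at 42946 and 49402 (log2 difference 0.20, spread 0.089), with its other 2 probe sets at 0.10 and -0.20. Rps29 had 177537 and 192285 (0.12), and its 3 probe sets were all higher, from 0.022 to 0.12. Rps20 had 74945 and 80981 (0.11) and Rps18 had 62573 and 66493 (0.088). For Rps20 all 3 probe sets past the filter were higher, while 1 of the 4 of Rps18 was lower at -0.50.

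Rps25, which some viral mRNAs need to start translation, had 1049 in control RNA and 512 in methionine-deficient RNA, 2.05-fold lower (log2 difference -1.03, probe-set spread 0.31). Rps27 had 989 and 878 (-0.17, spread 0.31). Rps26, which lines the path of the mRNA where it leaves the ribosome, had 49550 and 44284 (-0.16, spread 0.089). It was the bright canonical gene with the largest lower value and had 1 probe set. Rps15 had 38656 and 37556 (-0.042) and Rps7 had 93418 and 91486 (-0.030), both within the spread.

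The differences of Rps25 and Rpl14 were not seen in other probe sets that list these genes. Ribosomal protein genes have many processed pseudogenes, and 103 further probe sets list 1 ribosomal protein gene beside pseudogenes, predicted genes or retrocopies only. They lie outside the rule. They can bind transcripts of those copies too, so what each one reads is uncertain. For 12 canonical genes both kinds of probe set passed the filter. Rps25 had 46073 and 48035 (0.060) in its shared probe set and -1.03 in its own. Rpl14 had 45554 and 47441 (0.059) in its brightest shared probe set and -0.74 in its own. Rpl39 had 108990 and 109437 (0.0059) against -0.33, and Rps27 had 27561 and 32200 (0.22) against -0.17. The dim probe set of a gene was not always its own: Rpl11 had 534 and 433 (-0.30) in the shared probe set and 0.056 in its own. Of the 12 pairs 6 lay on the same side of 0.

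**Figure D3:**
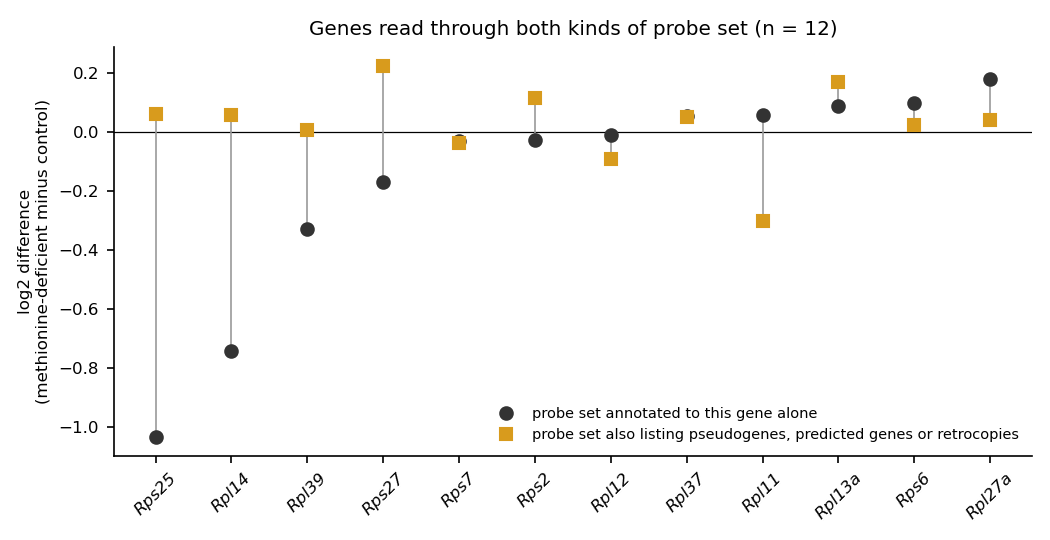
Log2 difference (methionine-deficient minus control) of 12 canonical genes read both by a probe set annotated to the gene alone (circles) and by one that lists further copies (squares), joined by a line per gene. Rps25 and Rpl14 lie at -1.03 and -0.74 in their own probe sets and at 0.060 and 0.059 in the shared ones.

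A further 25 genes were read only through shared probe sets. Their median log2 difference was 0.045, with 19 higher and 6 lower, and none was 1.5-fold apart. Of all genes past the filter 50.0% were higher and 19.4% at least 1.5-fold apart. At intensities of 10000 or more, where all 25 lie, these shares were 41.6% and 0.295%. Rps21, chosen after its values were seen, had 5 shared probe sets, all higher, from 0.056 to 0.54. Shared probe sets past the filter were higher in 70 of 92 (76.1%), and all those of Rpl14 were higher too, from 0.059 to 0.23. Rps16, whose own probe set was below the filter, had 0.30 in 1 shared probe set and -0.14 in the other. With shared probe sets included, 68 canonical genes were covered and none was 1.5-fold apart.

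Probe sets of 1 gene agreed closely where they were bright. Of 17 canonical genes with several probe sets at 10000 or more, the median range between the lowest and the highest difference was 0.095. Rpl7, at -0.30 to 0.17, had the widest. Rpl22, chosen after its values were seen, had probe sets at 0.069, 0.43 and -0.078. Below that level probe sets of 1 gene could part. Rpl37a had -0.016 at an intensity of 61855 in control RNA and 61164 in methionine-deficient RNA, but 1.28 in a probe set at 352 and 858. Rps10 had -0.030 at 102975 and 100875, but 0.96 in a probe set at 2480 and 4822. Of 19 canonical genes with several probe sets past the filter, 11 had them on both sides of 0.

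The 12 canonical probe sets below the filter ranged from -2.96 (Rps3) to 4.45 (Rps6). For Rps6 that probe set had 5.98 in control RNA and 152 in methionine-deficient RNA, while the one past the filter gave 0.096. For Rps3 it had 157 and 19.4, while its brightest gave 0.038. At such levels background can set the value.

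The type of probe set moved with the sign. By the naming of these arrays, a suffix x marks probe sets with some probes that match other transcripts, and a suffix a those that match several transcripts of a gene. Among canonical probe sets at 10000 or more, 26 of 32 with suffix x were higher (median 0.056), against 12 of 23 with suffix a (median 0.018) and 3 of 7 with no such suffix (median -0.0073). The 2 with a suffix s were both higher. Single-gene probe sets of other genes at that level had medians of 0.019 for suffix x (n = 67), -0.022 for suffix a (n = 127) and -0.052 with none (n = 168). The order of these 3 types was the same in both, and its part in the members' values was not tested.

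Paralogues replace a canonical protein in some tissues or states. Rpl22l1 had 28809 in control RNA and 30876 in methionine-deficient RNA (0.10, spread 0.089) beside 0.069 for Rpl22. Rps27l, a p53 target, had 49717 and 46852 (-0.086), with its other 2 probe sets at 0.011 and -0.31, beside -0.17 for the probe set of Rps27 alone. Rps4l had 480 and 315, 1.52-fold lower (-0.61, spread 0.46), beside -0.015 for Rps4x. Rpl39l, known from the testis, had 185 and 119, and Rpl3l, known from striated muscle, had 14.0 and 48.6, both below the filter. A shared probe set of Rpl3 gave 0.030.

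The symbols that are no subunit were both higher. Rpl7l1 had 2832 and 3473 (0.29, spread 0.18) in its brightest probe set, while its other probe sets gave 0.14 and -0.44. Rps19bp1 had 449 and 693, 1.54-fold higher (0.62, spread 0.46), from 1 probe set.

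Related genes were read from lists of the pathway. Fau, which encodes a small subunit protein fused to a ubiquitin-like domain and falls outside the symbol rule, had 32289 and 34404 (0.092). Translation factors and other mRNAs of the TOP class were higher in 12 of 19 genes. The median difference was 0.023, or -0.029 with the centring that moved all genes alike. None of the 19 was 1.5-fold apart, against 19.4% of all genes past the filter. Of the 19, 13 lay at 10000 or more, where 0.295% of all genes were 1.5-fold apart. Among the 19 the chaperone gene Nap1l1 had 0.33, the initiation factor gene Eif3f 0.31, the nucleolar gene Npm1 0.22 and Naca 0.17.

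Of 54 ribosome biogenesis genes 36 were lower, and their median difference was -0.094, where 50.0% of all genes were lower. At least 1.5-fold apart were 8 of the 54, 6 lower and 2 higher, against 19.4% of all genes. A filter at the 75th percentile of level kept 43 of the 54, and 547 of all 6905 genes past it were 1.5-fold apart. Nob1, an endonuclease that ripens the small subunit RNA, had 561 and 67.9, 8.15-fold lower from 1 probe set (log2 difference -3.03, spread 0.77). Lsg1, which acts late on the large subunit, had -0.86 and Gnl3l -0.80, each from 1 probe set (spread 0.31). Noc2l had 169 and 303 (0.84, spread 0.77). Fbl, the methyltransferase of ribosomal RNA, was chosen after its values were seen and had 3084 and 1865 (-0.73, spread 0.18). Noc2l and Fbl each had 2 probe sets past the filter, of which the brighter is given.

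RNA polymerase I genes had a median of 0.013 over 10 genes, with 5 higher and 5 lower, and -0.039 with that centring. Its subunit genes Polr1b and Polr1a had -0.58 and -0.57, Rrn3 had 0.26 and Polr1c 0.26. Growth signalling genes had a median of 0.043 with 10 of 17 higher, or -0.0094 with that centring. They were led by Mtor at 1111 and 1651 (0.57, spread 0.31) in the brighter of its 2 probe sets past the filter. Next were Mlst8 at -0.45, Max at 0.40 and the S6 kinase gene Rps6kb2 at 0.34. No gene of either list was 1.5-fold apart, against 19.4% of all genes past the filter. With a filter at the 75th percentile of level, 547 of all 6905 genes were 1.5-fold apart. It kept 5 of the 10 polymerase genes and 15 of the 17 growth signalling genes. Polr1b at 1.499-fold, Polr1a at 1.489-fold and Mtor at 1.486-fold lay just under 1.5-fold.

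Mitochondrial ribosomal proteins, which serve the separate ribosome of that organelle, had a median of -0.036 over 76 genes, with 35 higher and 41 lower. Their large subunit had a median of 0.0048 (n = 47) and their small subunit -0.073 (n = 29). Mrps9 had 0.65, Mrpl3 -0.58, Mrpl28 -0.51 and Mrps27 0.49. Mrps9 alone was 1.5-fold apart, against 19.4% of all genes past the filter. A filter at the 75th percentile of level kept 71 of the 76, and 547 of all 6905 genes past it were 1.5-fold apart. The 25th and 75th percentiles were -0.19 and 0.12 for the mitochondrial genes and -0.029 and 0.069 for the canonical cytosolic genes. The levels differ, as every mitochondrial gene lay below 10000, where the probe-set spread is wider, and 35 of the 42 cytosolic genes did not. The 7 cytosolic genes below 10000 had percentiles of -0.54 and 0.022.

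**Figure D4:**
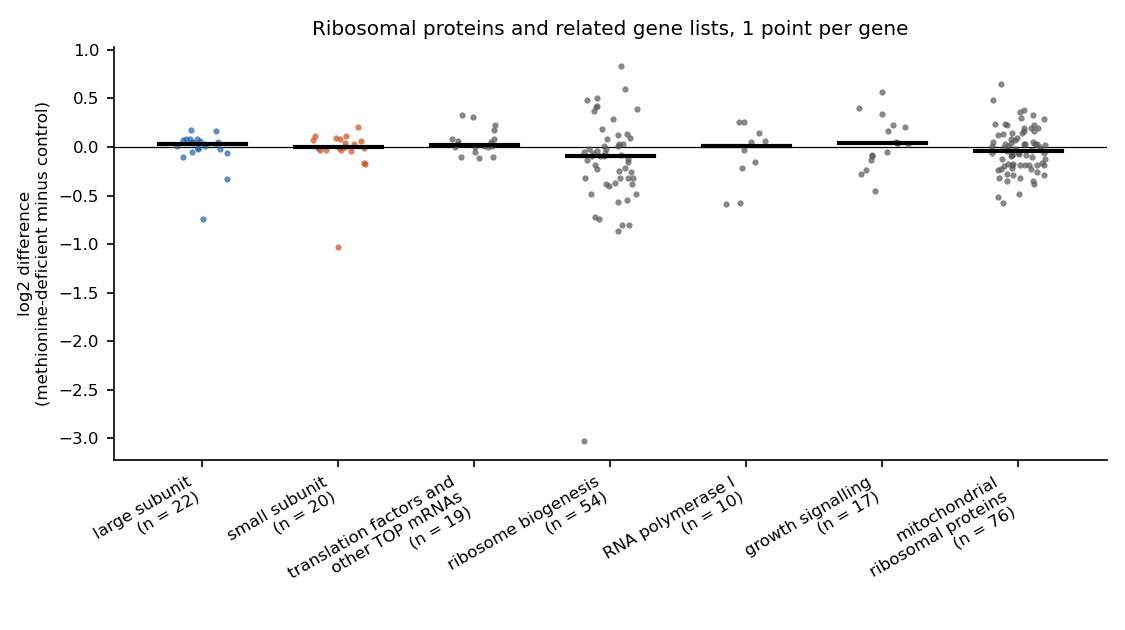
Log2 difference (methionine-deficient minus control) of each gene past the level filter in the cytosolic subunits and the related lists, 1 point per gene, with a bar at the median. The medians lie between -0.094 (ribosome biogenesis) and 0.043 (growth signalling), and the cytosolic subunits are packed near 0 apart from Rpl39, Rpl14 and Rps25.

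The tissue matched its label. All 8 acinar markers measured were past the filter, and 3 of 8 were higher. Their summed intensity was 937444 in control RNA and 920289 in methionine-deficient RNA, which is set by the brightest genes. The 3 dimmest had log2 differences of -0.32 (Ptf1a), -0.24 (Rbpjl) and 0.16 (Bhlha15). The 5 islet markers summed to 171654 and 179538, with 2 higher and 3 lower. Of these Gcg had the largest difference, at 21772 and 28591 (0.39). The 4 duct markers summed to 1479 and 1812, with 3 higher, and the lower one, Cftr, was below the filter. Of the 2 erythroid markers measured, the haemoglobin gene Hba-a1 was below the filter at 16.9 and 13.3, and the haem synthesis gene Alas2 had 511 and 677. The 4 measured B and plasma cell markers were all lower, with sums of 10119 and 5083. The 3 macrophage markers summed to 1874 and 3039, with 2 higher. C1qa had 1181 and 2381, while Adgre1 had 344 and 350 (0.028) and Cd68 350 and 307 (-0.19). RNA integrity was read from the control probe sets at the 3' and the 5' end of a transcript, whose ratio was 1.46 and 1.76 for Actb and 0.973 and 1.11 for Gapdh. Bacterial poly-A control transcripts were higher in 23 of 24 probe sets, by a median of 0.18 on the log2 scale. The part of these in the ribosomal protein values was not tested.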

How the data were processed

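Total RNA of pancreas was extracted with Trizol, pooled per group and labelled with a 3' IVT kit for 1 array per pool, per the labels' protocols. The deposited values are linear intensities per probe set. The sources used here do not give the authors' program, background correction or scaling. With 2% of values trimmed from the top and from the bottom, both arrays had a mean of 500.003, so they appear scaled to a common target, and a change in total RNA would not be seen. Gene symbols came from the platform annotation of the array, updated through gene identifiers for 34741 of 34945 probe sets with 1 symbol. The rule was applied to the platform symbols. Probe sets with several symbols (932) or none (9160) and 64 array controls stayed out of gene counts.

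Intensities were taken to log2(value + 1) with no further scaling. A gene was counted at 1.5-fold, without a test. The robust SD was computed over probe sets that read 1 gene, paired by adjacent level, in 5 level bins and, separately, at 10000 or more (132 pairs). The top of the 5 bins also held the pairs at 10000 or more. Named were members at least 1.5-fold apart, the 10 largest higher and lower canonical genes, genes of fixed roles, paralogues, genes whose probe sets part, and up to 4 genes of each related list. The members and lists were chosen with earlier results of these data known. The counting was tested on simulated data. Python 3.11.15, numpy 2.4.6, pandas 2.3.3, statsmodels 0.14.6 and matplotlib 3.10.9 were used.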

Additional observations from a re-analysis of the deposited data

How the results depend on the processing

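No paired analysis was possible because each group has 1 array, and no array could be left out. Medians of the canonical genes and of both subunits lay between -0.056 and 0.061 under all settings tried, so signs turned. With each array's median subtracted, which moved all genes alike and their median from -7.7e-06 to -0.052, the medians were -0.032 for canonical genes, -0.022 for the large subunit and -0.020 for probe sets, and -0.029 for TOP factors, -0.039 for RNA polymerase I and -0.0094 for growth signalling. With quantile scaling they were -0.0017 for canonical genes, -0.0090 for the large subunit, -0.0086 for large minus small and -0.0011 for RNA polymerase I. Loess scaling gave 0.0067 for the small subunit. Growth signalling had -0.071 with the mean over probe sets. Without probe sets that can bind several transcripts, 17 canonical genes were left, of which 12 were lower. Several of the 17 were then read only by dim probe sets. Medians were -0.048 for canonical genes, -0.036 for the large subunit, -0.045 for probe sets and -0.0018 for TOP factors. They were -0.28 for RNA polymerase I and -0.012 for growth signalling. With shared probe sets, an alternative chosen after seeing the data, the small subunit had 0.061 and large minus small -0.032. The 75th percentile level filter left 1 canonical gene at least 1.5-fold apart and gave 0.14 for RNA polymerase I. At 2-fold the count was 1. It was 3 of 17 genes without probe sets that can bind several transcripts. It was 0 with shared probe sets and 0 with a level filter at 10000, which was also chosen after seeing the data. Ribosome biogenesis genes had a median below 0 under all 8 settings, from -0.15 to -0.063, and mitochondrial ribosomal proteins from -0.088 to -0.014. The causes were not tested. Low signal limits what can be said of dim probe sets.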
